A study of Mus musculus with 10 samples.

Results

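Trophoblast regulator genes encode the transcription factors that set up and maintain the outer, placenta-forming lineage of the mouse embryo, and 7 of them were examined here out of the 21938 protein-coding genes of GENCODE M21 on chromosomes 1 to 19, X and Y. The members were given as a list of names, Cdx2, Elf5, Hand1, Tfap2c, Tead4, Gata2 and Gata3, and the rule sets no threshold on a measured value. The cells are F123, an embryonic stem cell line of a cross between castaneus and S129/SvJae mice, cultured with LIF on mouse embryonic fibroblast feeders and passaged once without feeders before harvest. Histone H3 trimethylated at lysine 4 (H3K4me3) was mapped by ChIP-seq in 2 biological replicates of 2000000 fixed cells each, and open chromatin by ATAC-seq, in which the Tn5 transposase cuts accessible DNA, in 2 replicates of 100000 fresh cells each. All samples are the same untreated line, so there is no treatment or genotype to compare. Each assay is represented by a single list of replicated peaks, and therefore no value below has a spread between replicates or a test, and the read depth is unknown.

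In the embryo, Tead4 acts with the Hippo effectors Yap1 and Wwtr1 at the top of the trophoblast program, where Cdx2 and Gata3 are turned on in the outer cells of the blastocyst. Tfap2c and Elf5 act in trophoblast stem cells, and Gata2 and Hand1 act as these cells differentiate, Hand1 in giant cells. Embryonic stem cells derive from the inner cell mass and do not normally form trophoblast. H3K4me3 marks the nucleosomes around active gene starts, and it is also found at CpG islands (stretches rich in the dinucleotide CG) of developmental genes that are held silent by Polycomb and H3K27me3, a state called poised. Elf5 is known for a promoter that is methylated and silent in embryonic stem cells. H3K27me3, DNA methylation and RNA were not analysed here, so neither the poised state nor silencing can be checked with these lists.

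H3K4me3 was found at 6 of the 7 genes, and Elf5 was the exception. A peak lay within 5 Kb of the start of Cdx2, Gata2, Gata3, Hand1, Tfap2c and Tead4, and each of these starts was itself inside a peak (61.1% of all starts). A gene start here is the 5′ end of the gene record on mm10. Among all protein-coding genes 69.3% had a peak within 5 Kb, and the share was 71.7% when any transcript start was allowed, so the count of members is close to that of genes in general. ATAC-seq peaks lay within 5 Kb of all 7 starts, against 81.3% of all genes, and 6 of the 7 starts fell inside one (62.5% of all genes). The start that did not was that of Gata2, whose nearest ATAC-seq peak began 372 bp inside the gene. At 6 genes the peaks of both assays overlapped each other (68.5% of all genes). Elf5 had ATAC-seq peaks without H3K4me3, a combination seen at 12.3% of genes, and the narrower case of a start inside an ATAC-seq peak with no H3K4me3 within 5 Kb held for 2.83%.

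**Figure D1:**
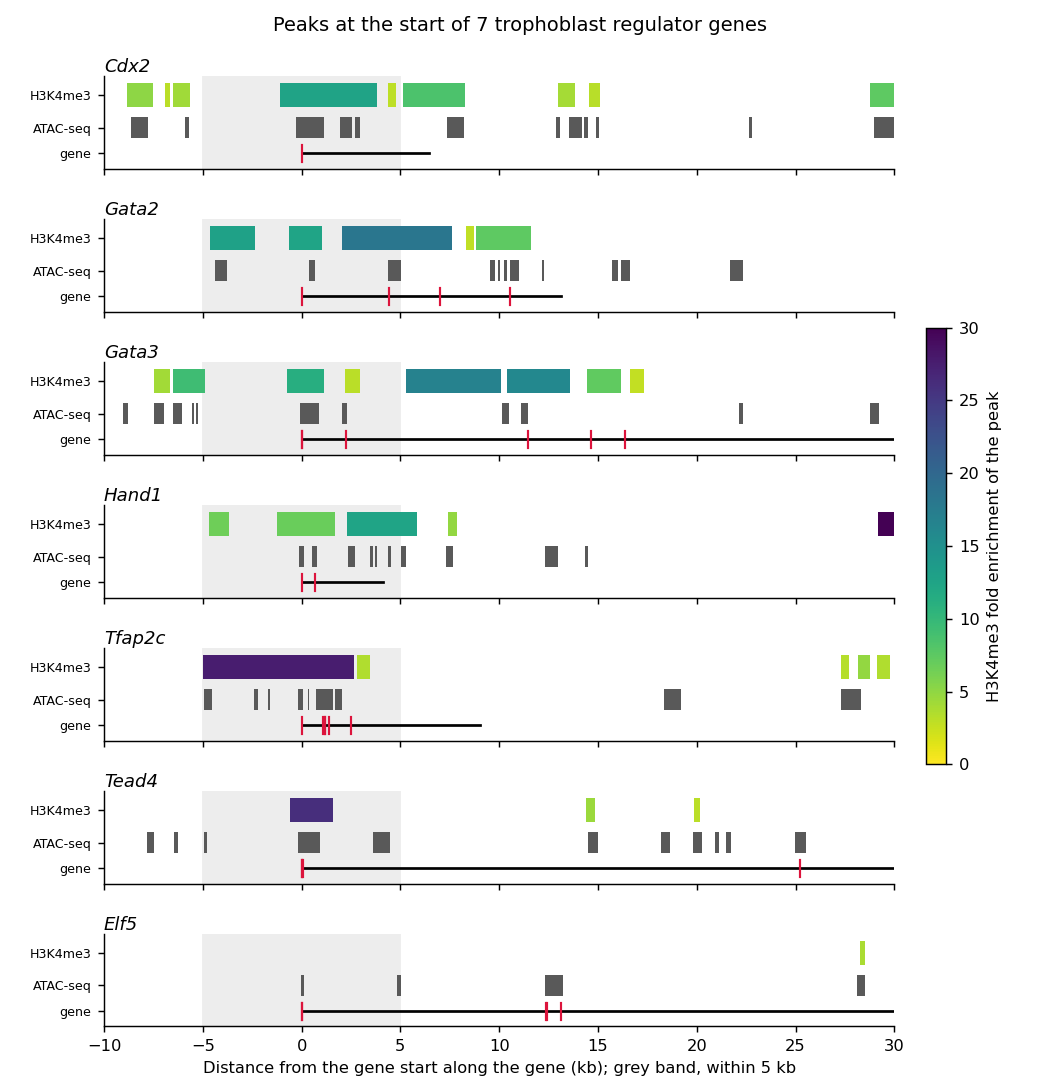
Maps of the 7 genes, with the distance from the gene start in Kb on the x axis, H3K4me3 peaks coloured by fold enrichment, ATAC-seq peaks in dark grey, the gene as a black line and its annotated transcript starts as red ticks. Cdx2, Gata2, Gata3 and Hand1 carry several H3K4me3 peaks of moderate enrichment. At the start, Tfap2c has a wide one of 27.64 and Tead4 a narrower one of 26.11, each with weaker ones farther along. Elf5 has none until 28.2 Kb into the gene.

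The sequences in front of the starts show how far the members differ in CG content, and 4 are printed so that Elf5 can be read beside other members. They come from the RefSeq promoter table for GRCm38.p6, the assembly that mm10 names, in which 4 of the 7 members were matched by symbol with 6 starts, while Hand1, Tfap2c and Tead4 were not matched. Each line is the part of the 250 bases before a RefSeq start that lies outside the exons of coding genes, 5′ to 3′ on the strand of the gene, with every CG in capitals. The regions are chr5:147307271-147307499 (minus strand) for Cdx2, chr6:88193641-88193890 (plus strand) for the upstream start of Gata2, chr2:9878601-9878850 (minus strand) for the downstream start of Gata3 and chr2:103423818-103424061 (plus strand) for the downstream start of Elf5.
Cdx2: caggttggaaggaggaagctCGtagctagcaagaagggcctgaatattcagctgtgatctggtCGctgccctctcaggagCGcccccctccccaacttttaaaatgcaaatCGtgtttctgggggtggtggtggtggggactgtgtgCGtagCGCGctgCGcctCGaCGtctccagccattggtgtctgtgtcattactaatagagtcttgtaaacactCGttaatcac
Gata2: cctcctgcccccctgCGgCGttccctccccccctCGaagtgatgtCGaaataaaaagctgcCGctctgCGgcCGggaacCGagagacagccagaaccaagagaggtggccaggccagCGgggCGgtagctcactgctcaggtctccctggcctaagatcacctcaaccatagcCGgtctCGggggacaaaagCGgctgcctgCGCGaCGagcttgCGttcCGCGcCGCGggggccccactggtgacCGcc
Gata3: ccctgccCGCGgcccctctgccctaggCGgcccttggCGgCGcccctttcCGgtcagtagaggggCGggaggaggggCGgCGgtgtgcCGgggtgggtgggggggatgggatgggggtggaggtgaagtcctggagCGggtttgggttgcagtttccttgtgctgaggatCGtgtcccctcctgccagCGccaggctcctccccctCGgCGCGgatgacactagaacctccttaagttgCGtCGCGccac
Elf5: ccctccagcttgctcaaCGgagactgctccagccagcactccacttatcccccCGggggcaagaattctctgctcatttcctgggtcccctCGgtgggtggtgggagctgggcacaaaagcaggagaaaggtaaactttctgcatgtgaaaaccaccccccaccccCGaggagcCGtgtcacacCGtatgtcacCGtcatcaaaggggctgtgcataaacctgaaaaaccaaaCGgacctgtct
The stretches hold 11 CG in 229 bases at Cdx2, 22 in 250 at Gata2, 19 in 250 at Gata3 and 8 in 244 at Elf5. Over the full windows of 300 bases (250 before and 50 after the start), Cdx2 had 18, Gata2 32 and Gata3 22, and 70.3%, 90.5% and 76.9% of the 32851 promoters in the table had fewer. The downstream start of Gata2 had 29 (87.1% had fewer) and that of Elf5 had 10 (56.5% had fewer). Its upstream RefSeq start, whose window lies in exon sequence and is not printed, had 3, with an observed over expected CpG of 0.11, and 23.3% of promoters had fewer. H3K4me3 peaks covered all 300 bases of each window of Cdx2, Gata2 and Gata3 and 0 bases of either window of Elf5. ATAC-seq peaks covered all 300 bases at Cdx2 and at the downstream RefSeq start of Gata2, 269 at Gata3 and 93 at the downstream RefSeq start of Elf5. They covered 0 bases at the upstream RefSeq starts of Gata2 and Elf5. The upstream RefSeq start of Elf5, 103412098, is not the start of its gene record, 103411688, which is used elsewhere in the text. The downstream RefSeq start of Gata2, 88198664, likewise differs from the GENCODE start at 88198334.

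In the same 6 windows, the letters GCCNNNGGC, a core of sites bound by the TFAP2 family, were matched 3 times at Gata3, once at Cdx2 and once at the downstream start of Gata2, and 16.6% of all promoters hold them at least once. CATTCC, bound by the TEAD family, was matched once at the downstream RefSeq start of Gata2 and once at the upstream RefSeq start of Elf5 (14.7% of promoters). TTTATG, bound by caudal factors such as Cdx2, was matched once at the downstream start of Elf5 (11.9%). AGATAA, bound by GATA factors, had no match in the 6 windows (11.2%). Both strands were searched, and a match describes letters only.

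Over the whole set of genes, CpG content and H3K4me3 went together. A start counted as a CpG island when a window of 200 bp within 500 bp of it had a GC content of at least 50% and an observed over expected CpG of at least 0.6, and the value given for each start is that of the 1 Kb around it. By this measure 6 members had a CpG-island promoter, against 64.2% of all genes, and all of these had H3K4me3, as did 94.9% of the 14079 genes with an island. Among the 7859 genes without one, 23.4% had H3K4me3. The upstream start of Elf5, here that of the gene record, had no island, with an observed over expected CpG of 0.19 and 15 CG. Its GC content of 55.8% was nevertheless above the median of 54.7% for all genes. Hand1 had the lowest CpG value of the other 6, with 0.34 and 26 CG, and it had no island by a stricter measure (500 bp, 55% and 0.65), which 5 members and 51.7% of all genes met. Gata3 had 0.48, Cdx2 0.64, Tfap2c 0.69, Tead4 0.76 and Gata2 0.77, with 88 CG at Gata2. The starts of Elf5 farther downstream on chromosome 2 varied. The value was 0.40 with 28 CG at 103424062, 0.37 with 27 CG at 103424126 and 0.29 with 13 CG at 103448738, all of which passed the measure of an island. It was 0.33 at 103424828 and 0.24 at 103446879, which did not pass. No H3K4me3 peak lay within 5 Kb of any of these starts. In bins of this value, 19.4% of the 3214 genes in the bin of the upstream start had H3K4me3, 35.6% in the bin centred on 0.25, 58.2% in that on 0.35 and 83.1% in that on 0.45, at whose lower edge the highest Elf5 value lies.

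**Figure D2:**
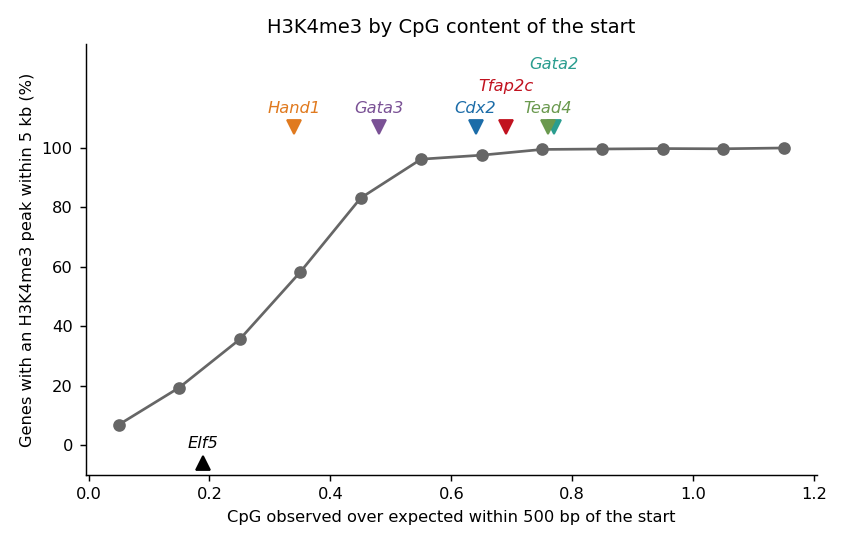
Share of genes marked by H3K4me3 within 5 Kb of the start (y axis, %) in bins of the observed over expected CpG of the start (x axis), shown as points at the bin centres. Triangles place the 7 members, those with a peak above the curve and Elf5, without one, below it, and the share rises from 6.86% in the lowest bin to 99.5% in the bin of Gata2 and Tead4.

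Tead4, the factor at the top of the program, had a single H3K4me3 peak within 5 Kb of its start. The gene lies on the minus strand of chromosome 6 from 128224288 to 128300823. Its peak, from 128299239 to 128301410, was 2172 bp wide, wider than 77.8% of all peaks. Its fold enrichment, the ratio of ChIP signal to background that the authors' peak caller gives, was 26.11, above that of 73.8% of all peaks listed, and its −log10 q was 399. An ATAC-seq peak of 1084 bp sat inside it at the start. A second ATAC-seq peak of 854 bp, 3.6 Kb into the gene, carried no H3K4me3. The internal start of a Tead4 transcript, 25246 bp downstream, fell in an ATAC-seq peak of 556 bp and had no H3K4me3 within 5 Kb. The gene body of 76.5 Kb held 17 ATAC-seq peaks, and 2 small H3K4me3 peaks in introns, with enrichments of 4.50 and 3.07, each overlapped an ATAC-seq peak.

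Cdx2, the caudal homeobox factor of the trophectoderm, carried a more extended domain that was weaker than the peak of Tead4. The gene runs on the minus strand of chromosome 5 from 147300805 to 147307270 and has 1 annotated start. The peak over the start, from 147303463 to 147308353, was 4891 bp wide, wider than 98.6% of all peaks, and covered most of the gene. This peak had a fold enrichment of 12.54, above that of 56.6% of all peaks, and a −log10 q of 106. A peak of 420 bp (enrichment 2.94) and another of 3104 bp (8.52) followed it toward and past the 3′ end, so that 3 H3K4me3 peaks touched the gene. Upstream, 3 further peaks with enrichments of 3.06 to 5.05 lay 5.62 to 7.52 Kb from the start, the farthest of them closer to the start of Urad. ATAC-seq peaks inside the main peak were 1435 bp wide at the start and 608 and 289 bp wide in an intron. Open chromatin covered 2332 bp within 5 Kb of the Cdx2 start, more than at 98.5% of genes.

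Gata3, a zinc finger factor that acts beside Cdx2, had H3K4me3 at each of its coding starts, and its strongest peak lay between them. The gene record starts at 9890034 on the minus strand of chromosome 2, while another coding transcript starts 11434 bp downstream at 9878600. The peak at the upstream Gata3 start was 1845 bp wide with an enrichment of 11.21. The peak at the downstream start was 3219 bp wide with 15.95, and the peak just upstream of that, in the intron, was 4826 bp wide with 16.67. Within 5 Kb of the downstream start H3K4me3 covered 8597 bp, against 2713 bp around the upstream one. The starts of other annotated genes, 4930412O13Rik, 9230102O04Rik and the antisense Gm13256, lie in these peaks as well, so the signal cannot be told apart between them and Gata3. An ATAC-seq peak of 363 bp lay at the downstream start and one of 975 bp at the upstream start, whereas the widest H3K4me3 peak overlapped no ATAC-seq peak.

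Tfap2c, an AP-2 factor also made in the germ line, had the widest single H3K4me3 peak of the 7 genes. It also had the longest covered length around the start of the gene record. Gata3 and Gata2 had more when the windows of every transcript start were joined (13165 and 12652 bp against 8338 bp). These joined windows are longer at Gata3 and Gata2, whose farthest starts lie 16362 and 10554 bp from the gene start, against 2523 bp at Tfap2c. The lengths are therefore not on the same footing. Its start at 172549593 on the plus strand of chromosome 2 lay in a peak from 172544585 to 172552254, which was 7670 bp wide, wider than 99.9% of the list. The enrichment of this peak was 27.64 and the −log10 q 354. All 6 annotated starts of the gene were inside this peak, and 7 ATAC-seq peaks overlapped it, the widest of 819 bp over 4 of the starts. H3K4me3 covered 8338 bp within 5 Kb of the Tfap2c start, more than at 99.9% of all genes. Another group of 3 small H3K4me3 peaks lay 27.3 to 29.1 Kb downstream, past the end of the gene, with enrichments of 3.29, 4.88 and 3.52, and an ATAC-seq peak of 1006 bp overlapped the first and second of them. No other gene start was closer to these peaks than that of Tfap2c.

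Gata2, a zinc finger factor of giant cells and of blood progenitors, had H3K4me3 over both of its coding starts. The upstream start at 88193891 on the plus strand of chromosome 6 lay in a peak of 1666 bp with an enrichment of 12.45, and the downstream start at 88198334 in one of 5565 bp with 18.18, the highest at the gene. A further peak of 2271 bp and an enrichment of 12.85 lay 2.35 Kb upstream and holds the start of the lincRNA Gm38708. Toward the 3′ end a peak of 2767 bp (7.39) covered 4 ATAC-seq peaks of 136 to 472 bp. The ATAC-seq peak at the downstream start was 634 bp wide, and the one nearest the upstream start, 323 bp wide, lay in an intron.

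Hand1, a basic helix-loop-helix factor of giant cells, had weak H3K4me3 in several pieces. The gene is 4.11 Kb long, on the minus strand of chromosome 11, and starts at 57832818. The peak over the start was 2905 bp wide with an enrichment of only 6.86. The strongest of its peaks, 3592 bp wide with 12.45, began 2273 bp into the gene and ran past the 3′ end, and another of 1010 bp with 6.67 lay 3.69 Kb upstream. Narrow ATAC-seq peaks of 116 to 371 bp were scattered over the locus, 2 of them in the peak at the start and 5 in the strongest peak. A peak of 3580 bp with an enrichment of 55.18 lay over the neighbouring start of Sap30l, its near edge 29.2 Kb from the Hand1 start.

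Elf5, an ETS factor of trophoblast stem cells and of mammary epithelium, had no H3K4me3 within 5 Kb of any of its 7 annotated starts. The gene lies on the plus strand of chromosome 2 from 103411688 to 103450989. The only H3K4me3 peak within 50 Kb was one of 258 bp in an intron, from 103439928 to 103440185 and 28.2 Kb from the start. Its enrichment was 3.79 and its −log10 q 12.8, and 1.02% of the list was narrower. It lay in an ATAC-seq peak of 408 bp. Of the 7 starts, 5 lay in an ATAC-seq peak. An ATAC-seq peak of 148 bp, from 103411639 to 103411786, covered the upstream start, that of the gene record. Another of 905 bp, from 103424025 to 103424929, covered the 3 starts of coding transcripts downstream. The first of these was narrower than most ATAC-seq peaks (13.3% were narrower) and the second was among the wider ones (93.4%). Within 5 Kb of the upstream Elf5 start, open chromatin covered 305 bp, and 24.1% of genes had less. For comparison, the upper quartile of the 6737 genes without H3K4me3 was 277 bp, and the median of the 15201 genes with it was 1181 bp.

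Set side by side, the 6 marked genes differed in how far H3K4me3 extended and in how strong it was. The values are those at the start of the gene record, and at Gata3 they depend on that choice, since the downstream coding start had 8597 bp and 16.67. The covered length within 5 Kb of the start was 2172 bp at Tead4, 2713 bp at Gata3, 5311 bp at Cdx2, 6643 bp at Hand1, 6905 bp at Gata2 and 8338 bp at Tfap2c, while the median of all genes with H3K4me3 was 2337 bp. The strongest enrichment was lower than this set's median of 30.7 at all 6. It was 11.21 at Gata3, 12.45 at Hand1, 12.54 at Cdx2, 18.18 at Gata2, 26.11 at Tead4 and 27.64 at Tfap2c. The last pair therefore stood above the other 4, and 38.3% and 42.2% of marked genes had a lower enrichment than Tead4 and Tfap2c, against 11.3% to 21.5% for the others.
The typical enrichment of a gene varied with the extent of its H3K4me3, so each member was also set against genes of a like extent. Among the 676 marked genes whose covered length was within 10% of that of Cdx2, the median enrichment was 37.58 and 3.7% were lower than Cdx2. For Gata3 the median of 2456 such genes was 34.55 and 2.12% were lower, a share that holds for the upstream start with its 2713 bp and was not computed for the downstream one. For Hand1 these values were 32.07 and 7.06% over 255 genes, and for Gata2 30.07 and 21.7% over 212 genes. Tead4 lay nearer the middle, with a median of 32.23 and 29.4% lower over 2549 genes. Tfap2c lay at the middle, with a median of 26.31 and 52.6% lower over 78 genes. Several peaks within 5 Kb were also common at the members, with 3 at Gata2, Gata3 and Hand1, 2 at Cdx2 and Tfap2c and 1 at Tead4. At least 2 were found at 18.4% of all genes and at least 3 at 4.57%.

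**Figure D3:**
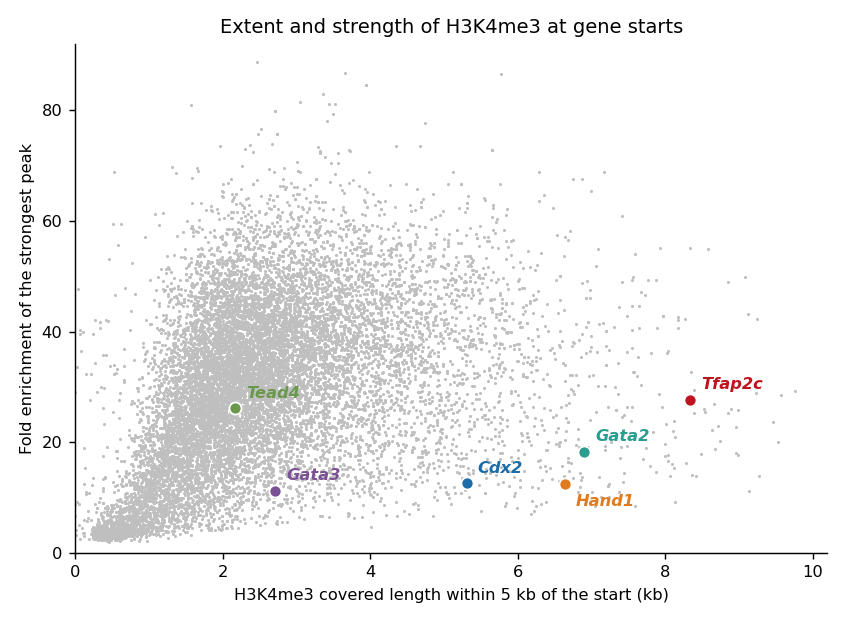
Each grey point is 1 of the 15201 protein-coding genes with H3K4me3, by the length covered within 5 Kb of the start (x axis, Kb) and the fold enrichment of its strongest peak (y axis). Gata3, Cdx2 and Hand1 lie toward the lower edge of the cloud with enrichments of 11.21 to 12.54, Gata2 lies above them at 18.18, Tfap2c lies far to the right, Tead4 lies inside the cloud, and Elf5 has no peak and is not drawn.

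The genes most like each member were sought over 4 measures, the covered length and strongest enrichment of H3K4me3, the covered length of ATAC-seq and the observed over expected CpG. Likeness was the Euclidean distance between percentile ranks over all protein-coding genes, where 0 is identical. The nearest gene was Gad2 for Cdx2 (distance 1.04), Fgf8 for Gata2 (3.88), Fgf14 for Gata3 (2.42), Pcdhga12 for Hand1 (3.97), Zfp503 for Tfap2c (3.26), Syt17 for Tead4 (4.41) and Hsh2d for Elf5 (0.294). For Elf5 both H3K4me3 measures are 0, as at the 6737 genes without a peak within 5 Kb. Its distance therefore rests on ATAC-seq and CpG alone and is not on the same footing as the others. All these likenesses are descriptions of 1 cell line in a single list per assay.

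Farther from the starts, the 7 genes had 136 ATAC-seq peaks within 50 Kb, of which 52 overlapped an H3K4me3 peak. A further 62 overlapped none and lay over 5 Kb from the start of every annotated gene, and these are called distal here. Tead4 had 16 distal peaks and Gata3 13, more than 98.6% and 95.4% of genes respectively, while the median of all genes was 5. Tfap2c had 10, Cdx2 7, Elf5 6, and Gata2 and Hand1 5 each. Of the distal peaks of Tead4, 8 lay in its own gene body, and 48 of the 62 at all 7 genes lay outside the member. The 905 bp peak at the downstream Elf5 starts and the 556 bp peak at the internal Tead4 start count among the distal ones, because only the 5′ ends of gene records were used as starts. Of the 7 genes, Elf5 had the fewest ATAC-seq peaks within 50 Kb, 12, and Tead4 the most, 25. The median of all genes was 11, and the upper quartile of genes without H3K4me3 within 5 Kb was 10. H3K4me3 peaks within 50 Kb numbered 1 at Elf5, 3 at Tead4 and 5 at Tfap2c, none of which has another coding start in that range, and the median of all genes was 3. Cdx2 had 14, and for 6 of these, at distances of 28.8 to 38.1 Kb, the nearest coding start was that of the pancreatic gene Pdx1.

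**Figure D4:**
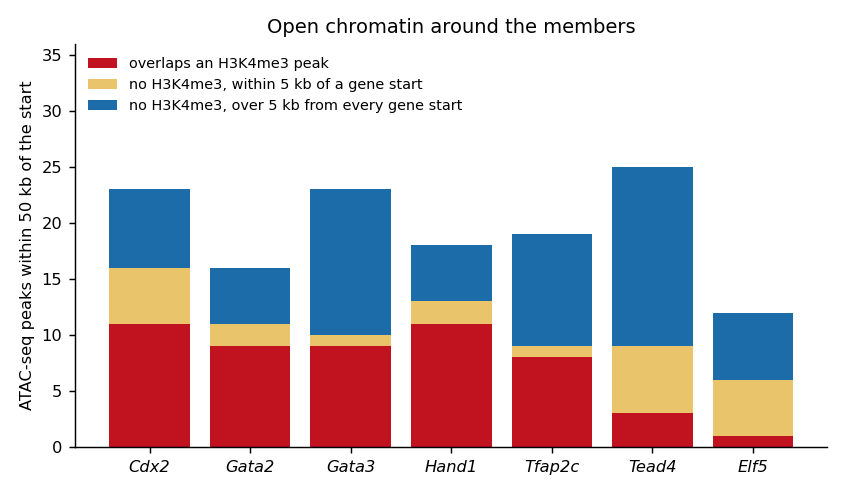
Number of ATAC-seq peaks within 50 Kb of the start of each member (y axis), split into those that overlap an H3K4me3 peak (red), those that do not but lie within 5 Kb of a gene start (yellow) and distal ones (blue). Peaks in H3K4me3 number 8 to 11 at Cdx2, Gata2, Gata3, Hand1 and Tfap2c, 3 at Tead4 and 1 at Elf5, and the blue part is largest at Tead4 with 16.

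Relatives and partners of the members were described in the same way, from lists chosen by name. Of 19 paralogues, genes of the same families as the members, 17 had H3K4me3 within 5 Kb and 18 an ATAC-seq peak (69.3% and 81.3% of all genes), with a median covered length of 3608 bp, against 5311 bp for the 7 members and 1761 bp for all genes. The pair without H3K4me3 was Gata1 and Ehf, an ETS factor of the same subfamily as Elf5, and neither had a CpG island. Gata6 covered 8982 bp with an enrichment of 17.60 and Tfap2a 7186 bp with 18.64, whereas Tead1 reached 55.74 over 4519 bp and Elf2 65.57 over 3614 bp. Of 11 other trophoblast stem cell genes 10 had H3K4me3, with a median of 4245 bp, among them Id2 with 8100 bp, Fgfr2 with 6945 bp and Eomes with 5448 bp and an enrichment of 31.76. Of the 13 Hippo pathway genes and Tead partners, 11 had H3K4me3, and the median of their strongest enrichments was 44.43, compared with 15.36 for the 6 marked members. The 3 genes without it in the last pair of lists, Esrrb, Lats2 and Stk3, had a peak within 5 Kb of another transcript start.
The 13 placental differentiation genes, which act after the trophoblast lineage is set, had H3K4me3 at 5 genes, beside 69.3% of all genes (Gcm1, Ascl2, Tfeb, Dlx3 and Esx1), and 4 of the 5 had a CpG island. The other 8 were Tpbpa, Prl3d1, Prl3b1, Prl2c2, Plac1, Syna, Synb and Ctsq, of which only Syna had an island. At 6 of these 8, Tpbpa, the 3 prolactin family genes, Synb and Ctsq, no ATAC-seq peak lay within 5 Kb. Plac1 had 2 and Syna 3 such peaks without H3K4me3, as Elf5 had 2.

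**Figure D5:**
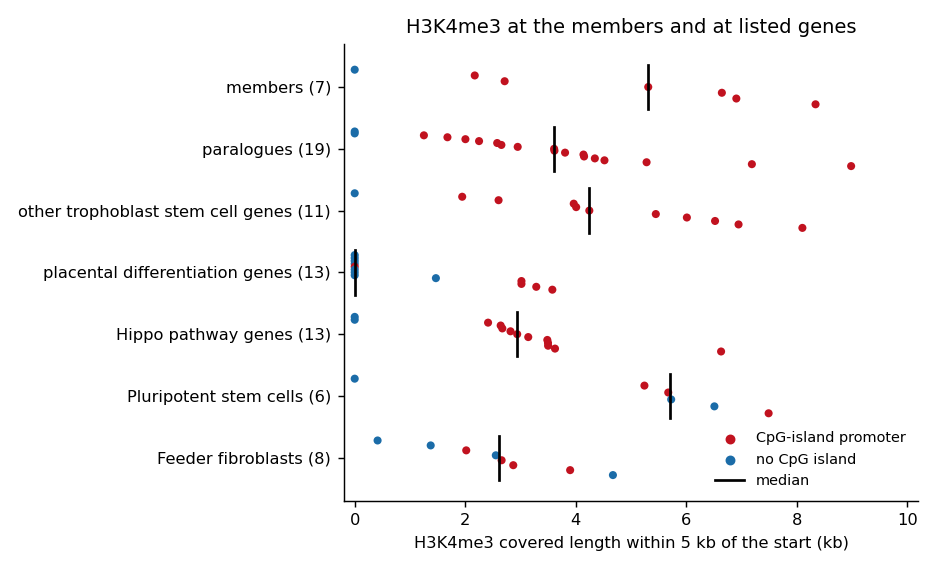
H3K4me3 covered length within 5 Kb of the start (x axis, Kb) for each gene of 7 lists, with the number of genes in brackets, 1 point a gene, red with and blue without a CpG-island promoter, and a black line at the median. The placental differentiation genes gather at 0 with a median of 0, while the members have a median of 5311 bp and only Elf5 at 0.

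The identity of the cells was checked with markers. Of 6 pluripotency genes, Pou5f1, Sox2, Nanog, Zfp42 and Klf4 had H3K4me3 at the start, with strongest enrichments of 14.88 at Nanog to 42.90 at Sox2, and Esrrb had it at another transcript start. All 8 genes listed for feeder fibroblasts also had H3K4me3 within 5 Kb, and since 69.3% of all genes did, the counts of both lists say little about cell identity. The feeder genes had enrichments of 3.21 at Col3a1 to 20.36 at Col1a2 with a median of 14.67, against 15.36 for the marked members. The median was 26.53 for the marked pluripotency genes, 16.36 for the marked paralogues and 26.55 for the other marked trophoblast stem cell genes. Feeder cells had been used before the last passage, and the part of their DNA in the peaks of the members was not tested.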

How the data were processed

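H3K4me3 ChIP-seq and ATAC-seq peak lists of F123 cells were used, each standing for 2 replicates. For H3K4me3, the authors ran the ENCODE histone pipeline with its defaults, and the deposited values are peak positions, the fold enrichment of each peak as a ratio to background, and −log10 of q, while its display score and −log10 p were not used. The labels name mm10; the aligner and threshold for this list are not given in the sources used here. The ATAC-seq list holds positions only, and was made by the authors from reads mapped to mm10 (bowtie 1.1.2), cleared of duplicates (samtools), shifted for the Tn5 insertion and called at a permissive p threshold (MACS2 2.1.1.20160309), after which pooled peaks found in each replicate were kept (bedtools 2.27.1). No read counts are given, so depth and precision are unknown. Reads of castaneus alleles were mapped to a reference of another strain, and the effect on peaks was not tested. PLAC-seq and input samples were not used here.

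Peaks were placed relative to GENCODE M21 gene starts (5′ end of the gene record), and a peak counted when it shared at least 1 bp with the window of 5 Kb on either side. Covered length is the union of peaks in that window. With every transcript start, it was taken over the joined windows of all starts of a gene, so the length searched differed between genes. CpG values were computed from GRCm38.p6 within 500 bp of a start. Shares of all protein-coding genes are given as description, with no test. Named genes were the 7 members, the genes of the lists (mostly those with the longest or shortest covered length), the nearest gene by likeness and the genes whose starts are near a described peak. The other list genes named, those without H3K4me3 or ATAC-seq peaks and Eomes, Tead1, Elf2 and the marker genes with the lowest and highest enrichment, were chosen after their values were seen. The members and lists were chosen with earlier results of these data known. Overlaps were tested on simulated data and against bedtools 2.31.1. Scripts ran in Python 3.11.15 with matplotlib 3.10.9, pandas 2.3.3, numpy 2.4.6 and scipy 1.17.1. Alternatives were other windows, every transcript start, stricter peaks, other overlaps, another island measure and other background genes.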

Additional observations from a re-analysis of the deposited data

How the results depend on the processing

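Under all alternatives run, 6 members had H3K4me3, 7 or 6 had ATAC-seq, 6 had overlapping peaks and 5 to 7 had a CpG island. These counts stayed within 1.5 times those reported, a wide limit for counts that cannot exceed 7. Elf5 had no H3K4me3 under any alternative. Smaller windows and stricter peaks can only remove peaks, so at Elf5 only the count over every transcript start could have added one. When ATAC-seq peaks were limited to the widest 50%, Elf5 lost its ATAC-seq peak within 5 Kb of the upstream start. Counting every transcript start gave 7 CpG islands, since 3 downstream starts of Elf5 passed. The 62 distal ATAC-seq peaks were 25 within 25 Kb, 108 within 100 Kb and 31 when limited to the widest 50%, by construction of these settings.

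Covered length depended on the choice of start, window and peaks. With every transcript start it was 13165 bp at Gata3 and 12652 bp at Gata2, each more than at 99.9% of genes, against 74.1% and 99.3% as reported. Tfap2c had 8338 bp in this setting. Genes with starts far apart have a longer joined window here, so these lengths and shares do not compare like with like. Within 2.5 Kb of the start, Gata2 fell to 2282 bp (more than 68% of genes) and Hand1 to 3133 bp (87.3%, against 99.1%), while Cdx2 had 3584 bp (93.7%) and Tfap2c 5001 bp (99.6%). Within 1 Kb, Gata2 had 1634 bp (66.2%), and Cdx2, Hand1 and Tfap2c filled the window (84.7% each). With peaks of a −log10 q of at least 50 it was 2728 bp at Hand1 (77%), where the peak over the start is weaker than this limit, and 1845 bp at Gata3 (54.6%). No paired analysis was possible because the lists merge the replicates, and for the same reason no replicate could be left out.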
